A study of Mus musculus with 12 samples.

Results

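The genes described here are 30 markers of T cells, NK and cytotoxic cells, B cells and antibody-secreting plasma cells, read in mouse liver on Affymetrix mouse genome arrays. They were taken from a list of names that was drawn up with earlier results of these data known, although the rule for membership uses no expression value, and each was represented by the brightest probe set annotated to that gene alone. A probe set is the group of short probes that together measure a transcript. Of the 30 genes 28 had such a probe set, among 18193 genes on the array that did: 12 of 13 T cell genes, 6 of 7 NK and cytotoxic genes, 7 of 7 B cell genes and 3 of 3 plasma cell and antibody genes. Lck was not matched to a probe set here and Klrb1c was carried only by a probe set shared with another gene, and neither is described further.

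The livers came from adult C57BL/6J mice of 4 genotypes with 2 arrays each: WT, Dscr-1 null, ApoE null and Dscr-1; ApoE double null. The null alleles were carried in the whole body, in lymphocytes as well as in hepatocytes. Dscr-1, also named Rcan1, is a feedback inhibitor of the phosphatase calcineurin, and ApoE is the apolipoprotein by which lipoprotein remnants reach their receptors. All 8 liver mice are labelled as fed HFD, with 12 weeks given in the treatment label, whereas the text of the paper places the liver arrays in mice on normal chow. The series also holds 4 arrays of primary endothelial cells grown from the aorta of ApoE null and double null mice, 2 of each. The replicates are described as independent experiments, and no source used here says which animal each array came from, so the p-values measure the spread between these arrays.

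Lymphocytes reach the liver through the sinusoids, and mouse liver is known for its resident NK and NKT cells. A T cell recognises antigen through a receptor whose CD3 and zeta chains pass the signal to the kinases LCK and ZAP70, and a signal through calcineurin then activates NFAT. NK cells and cytotoxic T cells kill by releasing perforin and granzymes from granules. A B cell signals through CD79A and CD79B bound to surface immunoglobulin, and a plasma cell secretes antibody, of which IgM is held together by the J chain.

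Apoe had a signal of 19937 to 21510 on the 4 arrays labelled as carrying ApoE and of 79.8 to 305 on the 4 labelled as lacking it. Rcan1 was not lower in the livers labelled as lacking Dscr-1 (209.5 to 491.5) than in the others (133.7 to 496.5). The sources used here do not place its probe set relative to the deletion, so it does not check that label, and every direction given for loss of Dscr-1 relies on the sample labels. The hepatocyte gene Alb was at 27527 to 64006 on all 8 arrays. One array differed from the rest, ApoE null replicate 1: its mean correlation with them was 0.839, against 0.875 to 0.885 for the other arrays, and its median signal was 44.7, against 32.2 to 37.6. The number of arrays limits the precision of every comparison.

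Lymphocyte marker signals were low in whole liver. Of 224 values, from 28 genes on 8 arrays, 119 (53.1%) lay below the median signal of their own array, compared with 37.5% of the values of all 18193 genes. The share below the median was 62.5% for T cell genes, 54.2% for NK and cytotoxic genes, 46.4% for B cell genes and 29.2% for plasma cell and antibody genes. Only Gzma lay above the array median on all 8 arrays, only Cd3d lay below it on all 8, and no marker signal exceeded 374.2, the value of Ighm in WT replicate 2. The number of the 28 genes above the median ran from 8 in WT replicate 1 to 16 in Dscr-1 null replicate 1 and double null replicate 2, with 8 and 14 in the WT pair, 16 and 10 in the Dscr-1 null pair, 15 and 14 in the ApoE null pair and 12 and 16 in the double null pair. Signals below an array's median cannot be read as evidence of a transcript here, and in a bulk liver sample fewer cells of a type and less RNA per cell cannot be told apart.

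**Figure D1:**
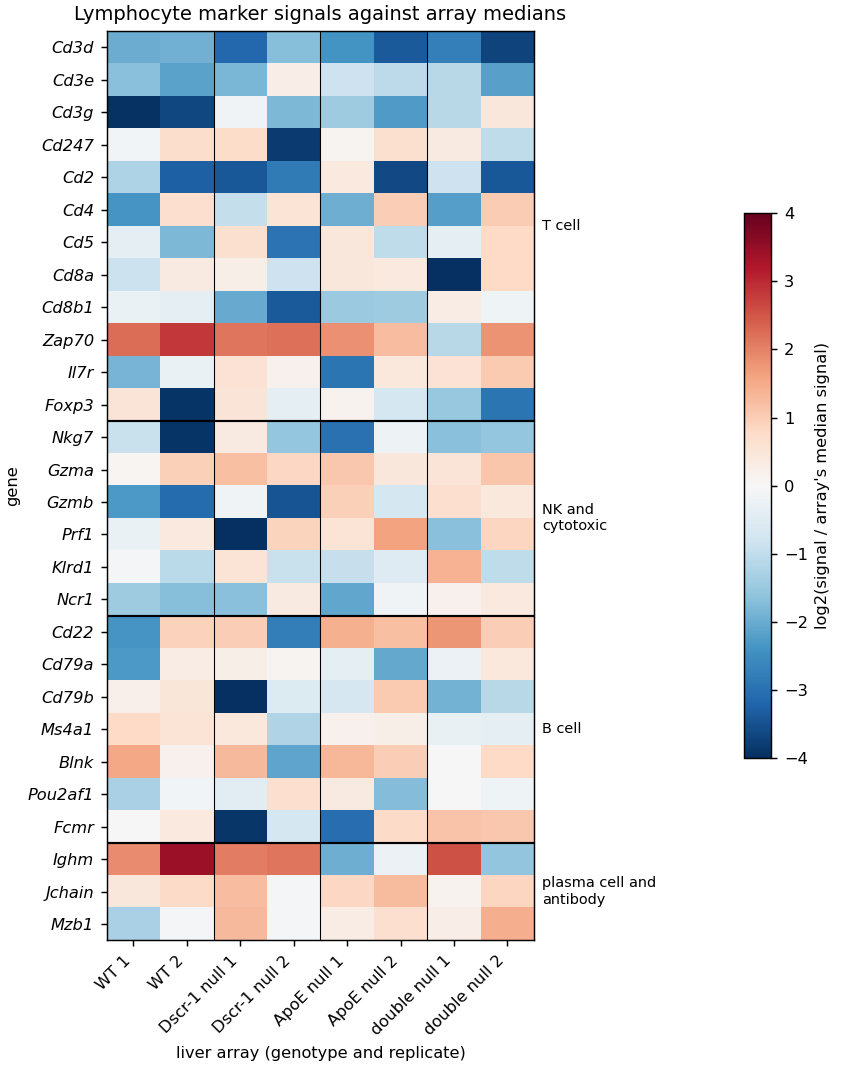
Log2 ratio of the signal of each of 28 lymphocyte genes (rows, grouped by cell class) to the median signal of its array, for the 8 liver arrays (columns, 2 per genotype); values beyond the ends of the colour scale take the end colours. Most rows change colour between the arrays of a genotype, and Gzma is the row that lies above the median on all 8 arrays.

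The arrays of a genotype often disagreed for these genes. In 63 of 112 pairs of same-genotype values the signals were more than 2-fold apart. The median ratio of the higher to the lower value of a pair was 2.41 for the markers and 1.51 for all 14758 genes that passed the filter, which asked for a signal above the array median on at least 2 liver arrays. The filter was passed by 22 of the 28 genes. The CD3 chains Cd3d, Cd3e and Cd3g, the adhesion receptor Cd2, the co-receptor chain Cd8b1 and the granule protein Nkg7 did not pass it and were not tested.

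Differences between genotypes were tested with limma on log2 of the signal plus 16, and are given as differences on that scale, which understates the change of a dim gene. None of the 22 lymphocyte genes passed an adjusted p (Benjamini-Hochberg) of 0.05 in any of 7 comparisons, and an unadjusted p under 0.05 was reached by 0 to 3 of them in each. Over all genes tested, the adjusted threshold was passed by 0.00678% in Dscr-1 null against WT, 0.0136% in ApoE null against WT, 0.0136% in double null against WT, 0% in double null against ApoE null, 0.00678% in ApoE lacking against ApoE intact livers, 0% in Dscr-1 lacking against Dscr-1 intact livers and 0% for the interaction of both losses. The 3 comparisons with WT share its 2 arrays, and the pooled comparisons use the same 8 arrays again.

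The T cell receptor genes gave low signals, and each CD3 chain lay above the array median on at most 1 array. Cd3d was at 2.9 to 10, Cd3e at 7.9 to 39.2, Cd3g at 2.1 to 51.5 and the zeta chain gene Cd247 at 2.3 to 59.2 across the 8 arrays. The WT pair of Cd3g was at 2.1 and 2.8, and 7 of the 8 Cd3g values were below their array medians. The co-receptor chain Cd8a was at 2.4 to 64.7. The signal of the co-receptor Cd4 was 6.3 and 55.7 in the WT pair, 18.1 and 47.7 in the Dscr-1 null pair, 11.5 and 64.2 in the ApoE null pair, and 8.1 and 75.6 in the double null pair. In each genotype Cd4 lay below the array median on replicate 1 and above it on replicate 2, so the arrays differed more within genotypes than between them. Cd2 was at 2.7 to 58.6, Cd5, a modulator of antigen receptor signalling, at 4.2 to 65.9, and Foxp3, the transcription factor of regulatory T cells, at 2.3 to 50.6. Cd8b1 gave 26.7 and 27.3 in the WT pair, 8.8 and 3.2 in the Dscr-1 null pair, 16.1 and 12.2 in the ApoE null pair, and 46.5 and 33.7 in the double null pair. Cd8b1 was named after its values were seen, lay above the array median on only 1 array and was not tested. No difference is read from these pairs.

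Zap70, the kinase that binds the phosphorylated zeta chain, lay above the array median on 7 of 8 arrays. Its signal was 151.2 and 246.7 in the WT pair, 154.5 and 148.5 in the Dscr-1 null pair, 160.4 and 76.5 in the ApoE null pair, and 17.5 and 129.3 in the double null pair. The 4 ApoE intact values exceeded 3 of the 4 ApoE lacking values, and the groups overlapped through ApoE null replicate 1. The difference of ApoE lacking from ApoE intact livers was -0.99 (SE 0.49, 95% interval -2.12 to 0.14, adjusted p = 0.815 by limma). Another Zap70 probe set, above the median on all 8 arrays, read 80.4 to 108.1 in ApoE intact and 98.4 to 141.5 in ApoE lacking livers, and the direction for Zap70 therefore depended on the probe set.

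Il7r, the receptor chain through which IL-7 keeps T cells alive, read 8.8 and 28.9 in the WT pair, 52.9 and 37 in the Dscr-1 null pair, 5.9 and 43.5 in the ApoE null pair, and 55.9 and 78.4 in the double null pair. Both pairs lacking Dscr-1 lay above the WT pair, but ApoE null replicate 2 lay between the Dscr-1 null values. Dscr-1 lacking livers were higher than Dscr-1 intact livers by 1.02 (SE 0.39, 95% interval 0.12 to 1.93, unadjusted p = 0.0317, adjusted p = 0.798 by limma). Without ApoE null replicate 1 this difference was 0.66. Against WT the double null difference was 1.3 (SE 0.55, unadjusted p = 0.0473, adjusted p = 0.814 by limma). A dimmer Il7r probe set lay below the array median on all 8 arrays.

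Among the granule genes, Gzma and Gzmb, which encode the serine proteases that enter the target cell, differed in how often they lay above the array median. Gzma gave 34.1 and 67.5 in the WT pair, 81.3 and 57.6 in the Dscr-1 null pair, 93.8 and 45 in the ApoE null pair, and 54 and 80.9 in the double null pair, with the 4 genotypes overlapping. ApoE lacking livers differed from ApoE intact livers by 0.15 (SE 0.33, 95% interval -0.61 to 0.91, adjusted p = 0.980 by limma), an interval within 1 of 0 on the log2(signal + 16) scale.

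Gzmb gave 6.6 and 4.1 in the WT pair, 31.9 and 3 in the Dscr-1 null pair, 85.9 and 20 in the ApoE null pair, and 60.4 and 50.3 in the double null pair. Both double null values and 1 ApoE null value exceeded all 4 ApoE intact values, and ApoE null replicate 2 lay below Dscr-1 null replicate 1. All 4 ApoE intact values were below their array medians, and the 3 values above the median were all ApoE lacking. Gzmb therefore passed the filter only through the group where it was high, and its p-values are descriptive only. The difference of ApoE lacking from ApoE intact livers was 1.37 (SE 0.43, 95% interval 0.38 to 2.37, unadjusted p = 0.0132, adjusted p = 0.647 by limma). Against WT it was 1.51 (SE 0.61, unadjusted p = 0.0391, adjusted p = 0.747 by limma) for the ApoE null pair, and 0.76 without ApoE null replicate 1. For the double null pair it was 1.74 (SE 0.61, unadjusted p = 0.0217, adjusted p = 0.717 by limma).

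Prf1, which encodes the pore-forming perforin, ran from 1.9 to 100 and lay above the array median on 5 arrays, and Klrd1, the CD94 chain of an NK receptor, ran from 16.3 to 98.4 and lay above it on 2. Nkg7 was at 2.3 to 45.5. Ncr1, the activating receptor NKp46 that marks NK cells, gave 11.9 and 10.7 in the WT pair, 11.1 and 42 in the Dscr-1 null pair, 10.5 and 29.7 in the ApoE null pair, and 42.2 and 49.1 in the double null pair. Only the double null pair had both values above the array median, with Dscr-1 null replicate 2 at the level of double null replicate 1. No WT value lay above it, so Ncr1 passed the filter through mutant arrays only. Double null livers were higher than WT by 1.17 (SE 0.48, 95% interval 0.07 to 2.28, unadjusted p = 0.0400, adjusted p = 0.792 by limma).

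**Figure D2:**
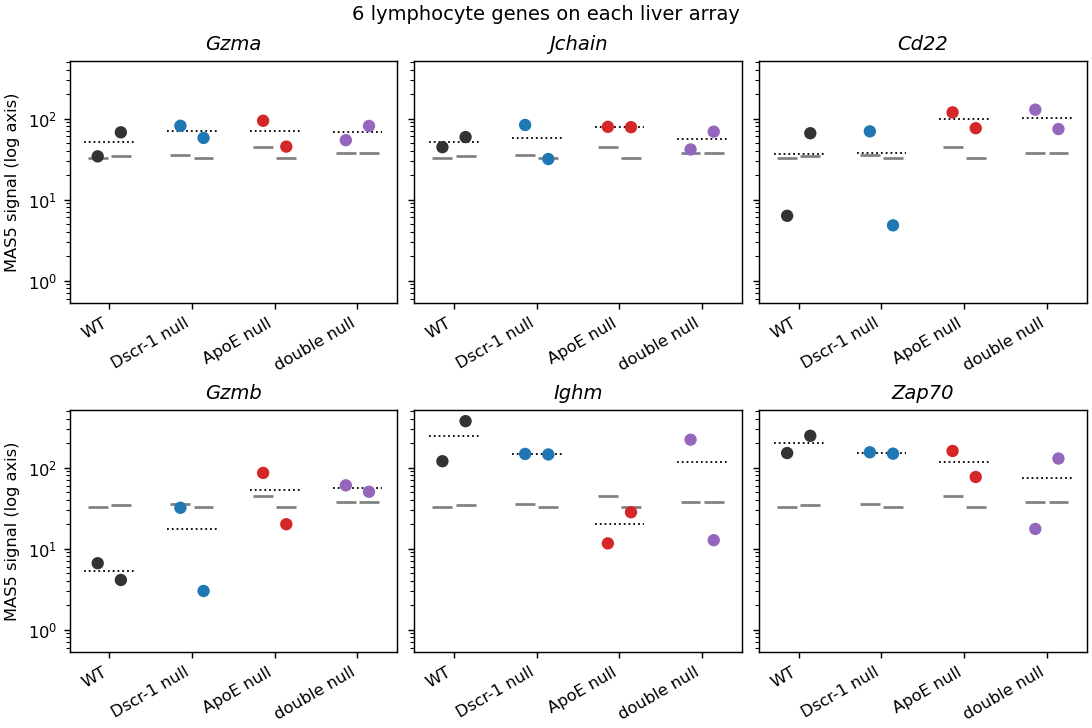
Signal (log axis) of Gzma, Jchain, Cd22, Gzmb, Ighm and Zap70 on each of the 8 liver arrays, 1 panel per gene and 2 points per genotype, with the genotype mean as a dotted line and each array's median signal over all probe sets as a grey dash. The points of a genotype are often several-fold apart, and the 4 ApoE lacking points of Cd22 all lie above its 4 ApoE intact points.

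Cd22, the inhibitory sialic acid receptor of B cells, was the only marker whose ApoE lacking arrays all exceeded the ApoE intact arrays; such a separation was seen in 2.24% of genes tested, and the opposite one in 1.63% of genes and 0 markers. Its signal was 6.3 and 65.8 in the WT pair, 69.4 and 4.8 in the Dscr-1 null pair, 119 and 75.9 in the ApoE null pair, and 128.5 and 74.1 in the double null pair. The highest ApoE intact value (69.4) and the lowest ApoE lacking value (74.1) were close, and each ApoE intact genotype had 1 value far below its array median. The difference was 1.41 (SE 0.57, 95% interval 0.09 to 2.73, unadjusted p = 0.0388, adjusted p = 0.742 by limma), and 0.90 without Dscr-1 null replicate 2. A dimmer Cd22 probe set differed by 0.98 in the same direction, but it lay above the array median on only 1 array and did not pass the filter. On it, double null replicate 1 read 3.6, within the ApoE intact range of 1.6 to 6.7.

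Cd79b and Cd79a, the signalling chains of the B cell receptor, showed no common pattern. Cd79b gave 37 and 48.3 in the WT pair, 2.2 and 22.4 in the Dscr-1 null pair, 28 and 67.8 in the ApoE null pair, and 10.2 and 17.6 in the double null pair, so that every Dscr-1 lacking value lay below every Dscr-1 intact value, a separation seen in 1.34% of genes tested (1.5% for the opposite one). All 4 Dscr-1 lacking values were below their array medians, and the 3 values above the median were all Dscr-1 intact. Cd79b therefore passed the filter only through the group where it was high, and its p-value is descriptive only. The difference was -1.09 (SE 0.35, 95% interval -1.91 to -0.27, unadjusted p = 0.0158, adjusted p = 0.734 by limma). Cd79a was at 6.6 to 50.6, with 6.6 and 42.4 in the WT pair and 31.8 and 50.6 in the double null pair.

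Blnk, the adaptor that couples the B cell receptor to its downstream enzymes, gave 93.7 and 38.7 in the WT pair, 87.8 and 7.6 in the Dscr-1 null pair, 112.5 and 64.6 in the ApoE null pair, and 36.8 and 65.1 in the double null pair. The genotypes overlapped, and ApoE lacking differed from ApoE intact livers by 0.40 (SE 0.51, 95% interval -0.78 to 1.58, adjusted p = 0.957 by limma). Fcmr, the receptor for the Fc part of IgM, gave 32.1 and 45.1 in the WT pair, 2.4 and 19.9 in the Dscr-1 null pair, 5.4 and 55.5 in the ApoE null pair, and 83.5 and 79.3 in the double null pair. Its double null pair exceeded every other array, but the share of all genes with such a pair was not counted. The interaction, which asks whether losing Dscr-1 had another effect in the absence of ApoE than in its presence, was 2.39 (SE 0.86, 95% interval 0.40 to 4.38, unadjusted p = 0.0243, adjusted p = 0.829 by limma), and 1.52 without ApoE null replicate 1. Ms4a1, which encodes CD20, was at 14.3 to 55.8, and Pou2af1, a coactivator of the octamer-binding factors, at 9.8 to 56.9. A dimmer Ms4a1 probe set, above the array median on 3 arrays, read 3.6 to 15.3 in ApoE intact and 3.6 to 129.1 in ApoE lacking livers. Its difference was 1.39, against -0.07 for the brightest one, so the result for Ms4a1 depended on the probe set.

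Ighm, the heavy chain of IgM, ranged from 11.6 to 374.2. Its brightest probe set gave 119.8 and 374.2 in the WT pair, 147.4 and 145.2 in the Dscr-1 null pair, 11.6 and 28.1 in the ApoE null pair, and 221 and 12.7 in the double null pair. The 4 ApoE intact values exceeded 3 of the 4 ApoE lacking values, and double null replicate 1 lay among the ApoE intact values. ApoE null livers differed from WT by -2.72 (SE 0.94, 95% interval -4.89 to -0.55, unadjusted p = 0.0201, adjusted p = 0.684 by limma), and ApoE lacking from ApoE intact livers by -1.85 (SE 0.66, 95% interval -3.38 to -0.32, unadjusted p = 0.0239, adjusted p = 0.690 by limma). Without double null replicate 2 the latter was -1.09.

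The other Ighm probe sets gave a different picture. Of 11 in all, 7 were higher and 4 lower in ApoE lacking livers, with differences from -1.85 to 0.94, and the mean of the probe sets gave 0.033. A probe set above the array median on all 8 arrays was also lower (-0.43), and another, above it on 6, was higher (0.94). The size and direction for Ighm therefore depended on the probe set.

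Jchain, which joins IgM and IgA into polymers, gave 44.3 and 59 in the WT pair, 83.2 and 31.6 in the Dscr-1 null pair, 78.9 and 78.1 in the ApoE null pair, and 41.5 and 68.8 in the double null pair. It did not follow Ighm: the ApoE null pair was among the lowest values of Ighm and among the highest of Jchain. ApoE lacking livers differed from ApoE intact livers by 0.26 (SE 0.32, 95% interval -0.49 to 1.0, adjusted p = 0.954 by limma). Mzb1, an endoplasmic reticulum protein that helps antibody assembly, was at 13 to 103, and its difference was 0.58 (SE 0.38, 95% interval -0.30 to 1.46, adjusted p = 0.886 by limma).

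Counted together, more lymphocyte markers were higher than lower in livers lacking ApoE, and none passed the adjusted test. Markers on the same array are not independent of each other, so the counts below do not measure precision. Between arrays of a genotype, the marker median of log2(signal + 16) had an SD of 0.35, above the median difference given next. In ApoE lacking against ApoE intact livers 22 of 28 were higher and 6 lower, with a median difference of 0.23, where 51.8% of all 18193 genes were higher and their median difference was 0.02. By class, 9 of 12 T cell, 5 of 6 NK and cytotoxic, 6 of 7 B cell and 2 of 3 plasma cell and antibody genes were higher, with medians of 0.23, 0.35, 0.11 and 0.26. At an unadjusted p under 0.05, 2 were higher (Gzmb and Cd22) and 1 lower (Ighm), that is 2 and 1 of 22, against a background of 3.94% and 1.74% of genes tested. The 6 genes that failed the filter are in the count of 28 and not in the count of 22. Gzmb passed the filter only through ApoE lacking arrays. With the arrays scaled to a common median, a setting chosen after seeing the data, 19 of 28 were higher and the median was 0.12. Without Dscr-1 null replicate 2, 16 of 28 were higher, and the median was 0.14 without WT replicate 1 and 0.36 without WT replicate 2.

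In ApoE null against WT livers 21 of 28 were higher with a median of 0.33 (all genes 0.01), and in double null against WT livers 18 of 28 with a median of 0.22 (all genes 0.02). The unadjusted counts were 1 higher (Gzmb) and 1 lower (Ighm) in the former, against 3.46% and 2.24% of genes, and 3 higher (Gzmb, Il7r and Ncr1) and 0 lower in the latter, against 3.51% and 1.78%. The adjusted p of these genes, given with each above, was 0.684 to 0.814. Gzmb, Il7r and Ncr1 had no WT value above the array median, so they passed the filter through mutant arrays only. The medians of 0.33 and 0.22 lay below the SD of 0.35 between arrays of a genotype. Without WT replicate 1 the ApoE null median was 0.22, with 15 of 28 higher, and without double null replicate 1 the double null median was 0.36. The unadjusted count in ApoE null livers was 0 without ApoE null replicate 1, 3 without its replicate 2, and 1 without WT replicate 2 or either double null array, and in double null livers it was 0 without WT replicate 1.

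Loss of Dscr-1 alone left the markers divided. In Dscr-1 null against WT livers 15 were higher and 13 lower with a median of 0.13 (all genes -0.01), and 0 of 22 reached an unadjusted p under 0.05 by limma in either direction, where 1.92% of genes did so upwards and 1.9% downwards. The median was -0.20 without Dscr-1 null replicate 1, -0.12 without WT replicate 1, 0.37 without Dscr-1 null replicate 2 and 0.22 without WT replicate 2, so its direction rested on single arrays. The unadjusted count was 3 without Dscr-1 null replicate 1, 2 without its replicate 2 or without either ApoE null array, and 1 without WT replicate 1. The B cell genes had a median of -0.65, with 5 of 7 lower, and the NK and cytotoxic genes a median of 0.44, with 5 of 6 higher. In double null against ApoE null livers 15 were higher and 13 lower with a median of 0.00, again with 0 unadjusted calls by limma, where 2.83% of genes were called upwards and 2.42% downwards. Leaving out ApoE null replicate 2 moved that median to -0.38, and leaving out replicate 1 moved it to 0.32. The unadjusted count was 4 without double null replicate 2, and 2 or 1 when ApoE null replicate 2 or 1 was left out. Here the B cell genes had a median of 0.03, with 4 of 7 higher, and the NK and cytotoxic genes one of 0.12, with 4 of 6 higher. Whether the class medians differed between the backgrounds was not tested. Over both backgrounds, Dscr-1 lacking livers had 16 markers higher and 12 lower with a median of 0.12, and 1 gene on each side at an unadjusted p under 0.05 (Il7r higher, Cd79b lower) against 2.22% and 2.32% of genes. This median was -0.04 without ApoE null replicate 2 and close to 0 when either WT replicate 1 or Dscr-1 null replicate 1 was left out, and the unadjusted count was 5 without double null replicate 2, 4 without Dscr-1 null replicate 1 and 1 without WT replicate 1 or ApoE null replicate 1. The B cell genes had a median of 0.01 and the NK and cytotoxic genes one of 0.33. Cd79b passed the filter only through Dscr-1 intact arrays. For the interaction the markers were divided 14 to 14, with 1 unadjusted call upwards (Fcmr) and 0 downwards, against 2.07% and 2.23% of genes. Without WT replicate 2, 9 of 28 were higher, and the median ran from -0.34 to 0.22 over the arrays left out, with 0 to 2 unadjusted calls.

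**Figure D3:**
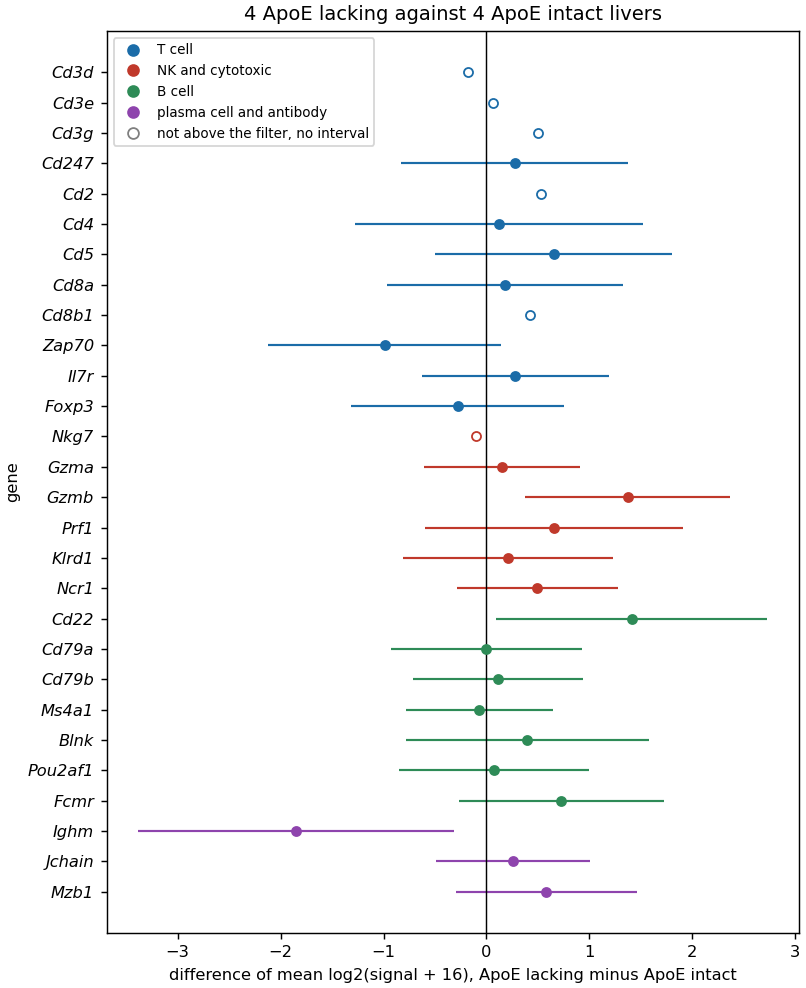
Difference of mean log2(signal + 16) between 4 ApoE lacking and 4 ApoE intact livers for each of 28 lymphocyte genes, coloured by class, with 95% intervals from limma (bars) for the 22 genes tested and open points for the 6 that did not pass the filter. The intervals of Gzmb and Cd22 lie above 0 and that of Ighm below it, and the other 19 include 0.

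The intervals were wide. Between ApoE lacking and ApoE intact livers the half-width of the 95% interval ran from 0.71 to 1.53 with a median of 1.01 on the log2 scale, and 5 of 22 intervals lay wholly between -1 and 1. The lower bound was above -1 for 18 of 22 genes, and the upper bound was below 1 for 8. For signals as low as these, a difference of 1 on this scale is more than a 2-fold change in signal. Between any pair of genotypes the half-width was 1.01 to 2.17 with a median of 1.42, so for every gene the interval was too wide to lie between -1 and 1 whatever its difference.

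Ratios of mean signals were also counted, since the paper describes genes over 2-fold up, without saying how the fold was formed. Over 2-fold above WT were 7 of 28 markers (25%) of Dscr-1 null, 8 (28.6%) of ApoE null and 9 (32.1%) of double null mice, against 12.1%, 16.4% and 14.7% of all genes. Over 2-fold below WT were 4, 1 and 5 markers (14.3%, 3.57% and 17.9%), against 11.6%, 10.2% and 10.1% of all genes. Cd3g, Gzmb and Mzb1 exceeded 2-fold in all 3 mutants, which share the same WT pair. The share of all genes that did so was not counted, and the WT signals of Cd3g (2.1 and 2.8) and Gzmb (6.6 and 4.1) were very low. Markers were dimmer than all genes, with 53.1% against 37.5% of values below the array median. Their median ratio within a genotype pair was 2.41, against 1.67 for all genes. How far this accounts for the shares was not tested. Of the 7, 8 and 9 markers above 2-fold, those with both mutant arrays above the array median numbered 1, 3 and 6.

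Other lymphocyte genes, in lists that hold none of the 30 names, gave mixed differences between ApoE lacking and ApoE intact livers. Of 17 other T cell genes 8 were higher and 9 lower with a median of -0.03, of 14 other NK and cytotoxic genes 10 and 4 with a median of 0.16, of 13 other B cell genes 8 and 5 with a median of 0.20, and of 7 other plasma cell genes 5 and 2 with a median of 0.32. Among 8 lymphocyte attractants and survival factors 4 were higher and 4 lower with a median of 0.09. The largest of these was Cxcl9, a ligand of the chemokine receptor CXCR3, at 112.6 to 195 in ApoE intact and 209.1 to 698.9 in ApoE lacking livers (difference 1.23, SE 0.47, unadjusted p = 0.0316, adjusted p = 0.725 by limma). Its receptor gene Cxcr3 was at 8.9 to 59.1 and 26.9 to 150.4, with the groups overlapping.

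Genes shared by all leukocytes, and those of myeloid cells, had larger median differences than the lymphocyte markers in the same livers. Brightness differed between the lists: 53.1% of marker values lay below the array median, against 3.75% of pan-leukocyte and 9.38% of macrophage values. For dendritic and neutrophil genes the shares were 34.7% and 43.8%. The scale understates changes of dim genes, and the marker median was 0.32 with an offset of 1 and 0.13 with 64. How far this accounts for the ranking was not tested. Of 10 pan-leukocyte genes 9 were higher in ApoE lacking livers, with a median of 0.65 and values of 1.14 for Cd53, 1.29 for Cd52 and 1.60 for Itgb2. In the list of 16 macrophage and Kupffer cell genes there were 12 higher, with a median of 1.0. Of the 15 tested, 10 reached an unadjusted p under 0.05 by limma upwards and 1 downwards, against 3.94% and 1.74% of genes tested. The upward count was 4 of 10 tested pan-leukocyte, 4 of 7 dendritic and 1 of 8 neutrophil genes, with 0 downwards in each. Of 9 dendritic cell genes all 9 were higher, with a median of 0.60. The highest were the MHC class II genes H2-Aa, H2-Ab1, H2-Eb1 and Cd74 (0.82 to 1.27), which B cells also express. The others ran from 0.08 to 0.60. Of 8 neutrophil genes 6 were higher, with a median of 0.39. None of these genes passed the adjusted test. The summed signal of the macrophage list was 6365 to 8420 on the ApoE intact and 10856 to 24794 on the ApoE lacking arrays and that of the pan-leukocyte list 990 to 1417 and 1892 to 2888, with no overlap. The summed signal of the 28 lymphocyte markers was 895 to 1431 and 1081 to 1359, and the groups overlapped. Without Ighm and Zap70, a choice made after their values were seen, the sums of the other 26 were 613 to 1008 and 976 to 1208. The groups still overlapped, with double null replicate 1 and ApoE null replicate 2 below Dscr-1 null replicate 1. By the probe sets used, both removed genes were lower in ApoE lacking livers, so this choice favours a separation. Probe sets disagreed in direction for Ighm and Zap70, and also for Cd247, Cd8a and Ms4a1, which stayed in the sums. The part of the myeloid cells in the lymphocyte values was not tested. Red cell genes were higher in 3 of 3, hepatocyte genes in 5 of 7, liver endothelial genes in 3 of 7 and stellate cell genes in 5 of 7.

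**Figure D4:**
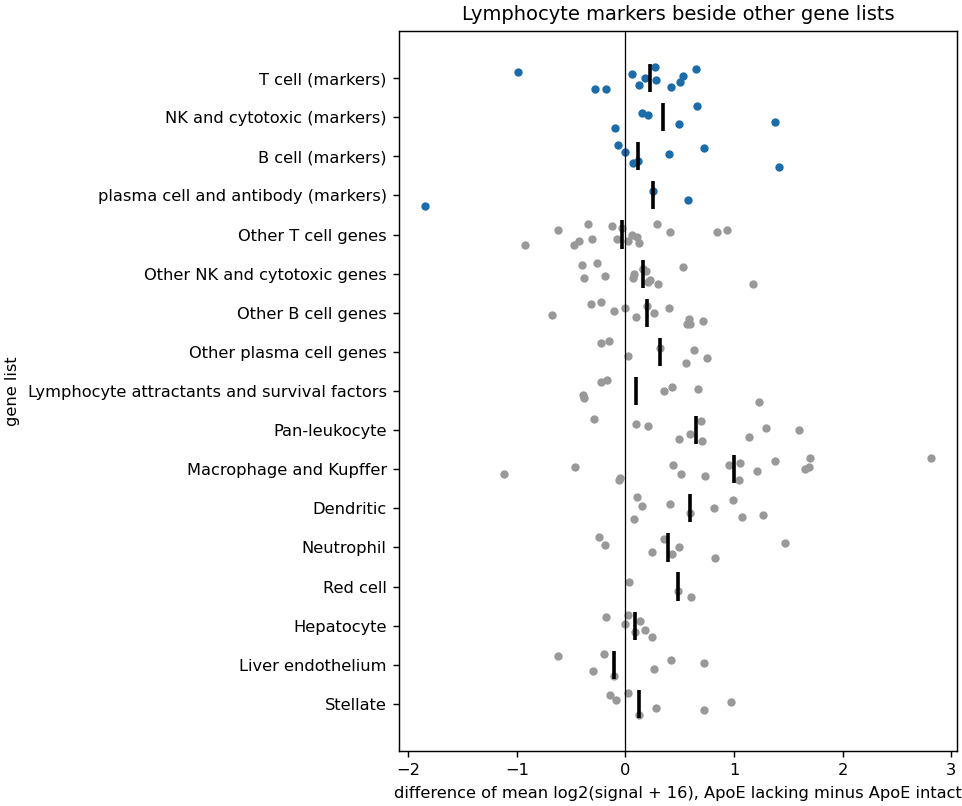
Difference of mean log2(signal + 16) between ApoE lacking and ApoE intact livers for the genes of each list (points are genes, bars are list medians), for the 4 classes of lymphocyte markers and 13 other lists. The macrophage list has the highest median, 1.0, and the 4 marker classes have medians of 0.11 to 0.35. The scale understates changes of dim genes, and the marker classes are dimmer than the macrophage list.

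In cultured aortic endothelial cells, where lymphocytes are not a labelled component, the same probe sets were lower against the array. Values there were deposited on a log2 scale and normalized apart from the liver, so they are given only against each array's own median and were not tested. Of the 28 genes 23 lay below the median on all 4 arrays and 94 of 112 values (83.9%) lay below it, against 39.4% of the values of all genes. The 4 genes above the median on all 4 arrays were Zap70, by 2.77 to 3.14 on the log2 scale, Ighm, by 0.73 to 1.17, Mzb1, by 0.69 to 1.10, and Cd4, by 0.00 to 0.50. The Zap70 probe set that represents the gene in liver was therefore also above the median in cells that are not lymphocytes. Gzma, above the median in every liver, was below it on all 4 aortic arrays.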

How the data were processed

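The authors hybridised biotin-labelled cRNA to 12 Affymetrix arrays, 8 of liver and 4 of aortic endothelial cells. The deposited liver values are linear signal intensities that the authors made with the MAS5 algorithm of the GeneChip Operating Software, with the average set to 100. The deposited aortic values are log2, and the sources used here give no normalization for them. Transcriptome Analysis Console is named in the submitters' notes on processing. MAS5 subtracts an estimate of mismatch signal, to which dim probe sets are sensitive.

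Apart from 64 controls there were 45037 probe sets. A single gene was annotated to 34945 of them, several genes to 932 and none to 9160, and 34741 were matched by Entrez identifier. The fit used lmFit and eBayes of limma (version 3.58.1, R 4.3.3) on log2(signal + 16), with a mean per genotype and 4 residual degrees of freedom, on 32005 probe sets above the array median on at least 2 liver arrays. Adjustment (Benjamini-Hochberg) ran over these. Values on every array are given for genes above the array median on at least 6 liver arrays or with an unadjusted p under 0.05 in any comparison. Cd4 and Cd8b1 were added after their values were seen. From other lists at most 4 genes with the lowest p could be named. The fit was tested on simulated data. The markers and lists were chosen with earlier results of these data known. Same-numbered arrays deviated together at correlations of -0.00155 to 0.0293, so numbers were not used as pairs. Alternatives were other offsets, filters, probe set summaries, variance models, scaling and leaving out each array.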

Additional observations from a re-analysis of the deposited data

How the results depend on the processing

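The depth of signal and the 2 arrays per genotype limit these results, since most markers lie near or below the array median. Under all 17 alternatives 0 lymphocyte markers passed the adjusted test in each of the 7 comparisons, which with 2 arrays per genotype says nothing about stability. The median over markers stayed above 0 in ApoE lacking against ApoE intact livers (0.12 to 0.36), with 16 to 23 of 28 higher. When arrays were left out it ran from -0.38 to 0.32 in double null against ApoE null, -0.20 to 0.37 in Dscr-1 null against WT, -0.04 to 0.10 in Dscr-1 lacking against Dscr-1 intact livers and -0.34 to 0.22 for the interaction, changing sign in each. Ighm in ApoE lacking livers turned from -1.85 to 0.033 with the mean of its probe sets, by their opposite directions, and was -2.61 to -1.09 when arrays were left out. Offsets of 1 and 64 gave 2.53 and 0.63 for Gzmb and 2.20 and 0.76 for Cd22.

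The number of all genes passing moved more. For ApoE lacking against ApoE intact livers it was 1, and 29 with an offset of 64, 2 with a filter on the mean, 70 with a trended and robust variance, 2 with arrays scaled to a common median, and 1 to 2 when arrays were left out. For ApoE null against WT it was 2, and 0 with an offset of 1, 13 with 64, 1 with the mean of probe sets, 40 with the trended and robust variance and 0 to 2 when arrays were left out. For double null against WT it was 2, and in the same order 1, 23, 1, 77 and 0 to 2. For Dscr-1 null against WT it was 1, and in the same order 0, 5, 0, 19 and 0 to 1. With the trended and robust variance it was 2 for double null against ApoE null, 14 for Dscr-1 lacking and 5 for the interaction, and with an offset of 64 it was 3 and 2 for the last pair, from 0. The cause was not tested.

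With the replicate number as a block, the differences were the same by construction, and the markers at an unadjusted p under 0.05 numbered 1 in Dscr-1 null against WT, 2 in double null against ApoE null, 4 in double null against WT and 2 for the interaction. None passed the adjusted test.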
